A study of Caenorhabditis elegans with 5 samples.

Results

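The unfolded protein responses raise chaperone genes when proteins misfold in the endoplasmic reticulum (ER) or in mitochondria. The genes described here are 9 such genes of the nematode Caenorhabditis elegans, out of the 45461 identifiers listed in each of the 5 deposited tables. They were picked by identifier, with earlier results of these data known. They are the ER chaperones hsp-4 (F43E2.8) and hsp-3 (C15H9.6), the ER folding enzyme pdi-2 (C07A12.4), the ER stress sensors ire-1 (C41C4.4), pek-1 (F46C3.1) and atf-6 (F45E6.2), the transcription factor xbp-1 (R74.3), and the mitochondrial chaperones hsp-6 (C37H5.8) and hsp-60 (Y22D7AL.5). All 9 were found in all 5 tables, and all 9 passed the minimum mean of 50 normalized reads in every comparison.

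RNA was sequenced from pools of ca. 3000 whole worms kept at 20 °C and taken from 2 experiments, with 1 library for each of 5 groups. The gld-1 RNAi fasted group received gld-1 RNAi and then spent 48 h from day 2 of adulthood on plates with no bacteria, and the gld-1 RNAi fed group received gld-1 RNAi and then spent the same 48 h on bacteria carrying the empty vector L4440; both are labelled as the fourth day. The gld-1 RNAi group was taken on the third day, and the control (day 3) and young adult (day 1) groups were on L4440 plates without gld-1 RNAi. The labels disagree on when gld-1 RNAi began, at the L1 stage or after day 1 of adulthood, and they name no strain and no allele. gld-1 encodes a germline RNA-binding protein whose loss lets germ cells return to mitosis and form a tumour. The pools were of whole worms, so no group isolates a tissue.

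With 1 library per group there is no replicate check and no test. The 95% intervals below are exact and cover counting error only, and a gene whose interval leaves out 0 differed between 2 libraries, which need not hold for the conditions. Libraries held 13803289 to 27598482 reads in genes. Ribosomal RNA took 3.51% of these in the young adult library and 25.4% to 27.8% in the others. A level is the number of reads divided by a size factor for the library (median of ratios over the 5 libraries). The RNAi target gld-1 had a level of 1592 in the gld-1 RNAi fasted, 3061 in the gld-1 RNAi fed and 1994 in the gld-1 RNAi library, against 20340 in the control and 17593 in the young adult library, so it was lower in all 3 libraries labelled gld-1 RNAi.

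In the ER, 3 membrane proteins sense unfolded protein. IRE-1 removes an intron from xbp-1 mRNA, which allows the active transcription factor XBP-1 to be made, PEK-1 slows translation, and ATF-6 is a membrane-bound transcription factor. hsp-4 is the usual reporter of this response in worms, and hsp-3 encodes the other BiP-type chaperone of the ER. In mitochondria, hsp-6 and hsp-60 serve as reporters of a separate response that depends on the transcription factor ATFS-1. Gene counts do not tell spliced xbp-1 from unspliced xbp-1, nor mRNA from translation.

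Per kilobase of exon the mitochondrial and ER chaperones ranked above the sensors. In the gld-1 RNAi fasted library hsp-6 ranked 161, hsp-60 ranked 249, hsp-3 ranked 300 and pdi-2 ranked 351 of 19271 protein-coding genes. There xbp-1 ranked 369 and hsp-4 ranked 561, while ire-1 ranked 2939, pek-1 ranked 4854 and atf-6 ranked 6375. The order was not fixed across libraries, since xbp-1 ranked 368 in the gld-1 RNAi but 790 in the control library and hsp-4 ranked 482 in the control but 719 in the young adult library. The sensors kept the order ire-1, pek-1, atf-6 in all 5 libraries, at 806, 384 and 151 normalized reads per kilobase in the gld-1 RNAi fasted library and 536, 252 and 82.4 in the young adult library.

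Over the 5 libraries, 6 of the 9 genes had a highest level at least 1.5 times the lowest. In control against young adult alone, 66.6% of all genes lay beyond 1.5-fold, so this count does not set the 9 genes apart. Within the 3 gld-1 RNAi libraries the highest level was at most 1.21 times the lowest, for hsp-6, and at most 1.11 times for the other 8 genes. The plot of levels shows each gene in each library.

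**Figure D1:**
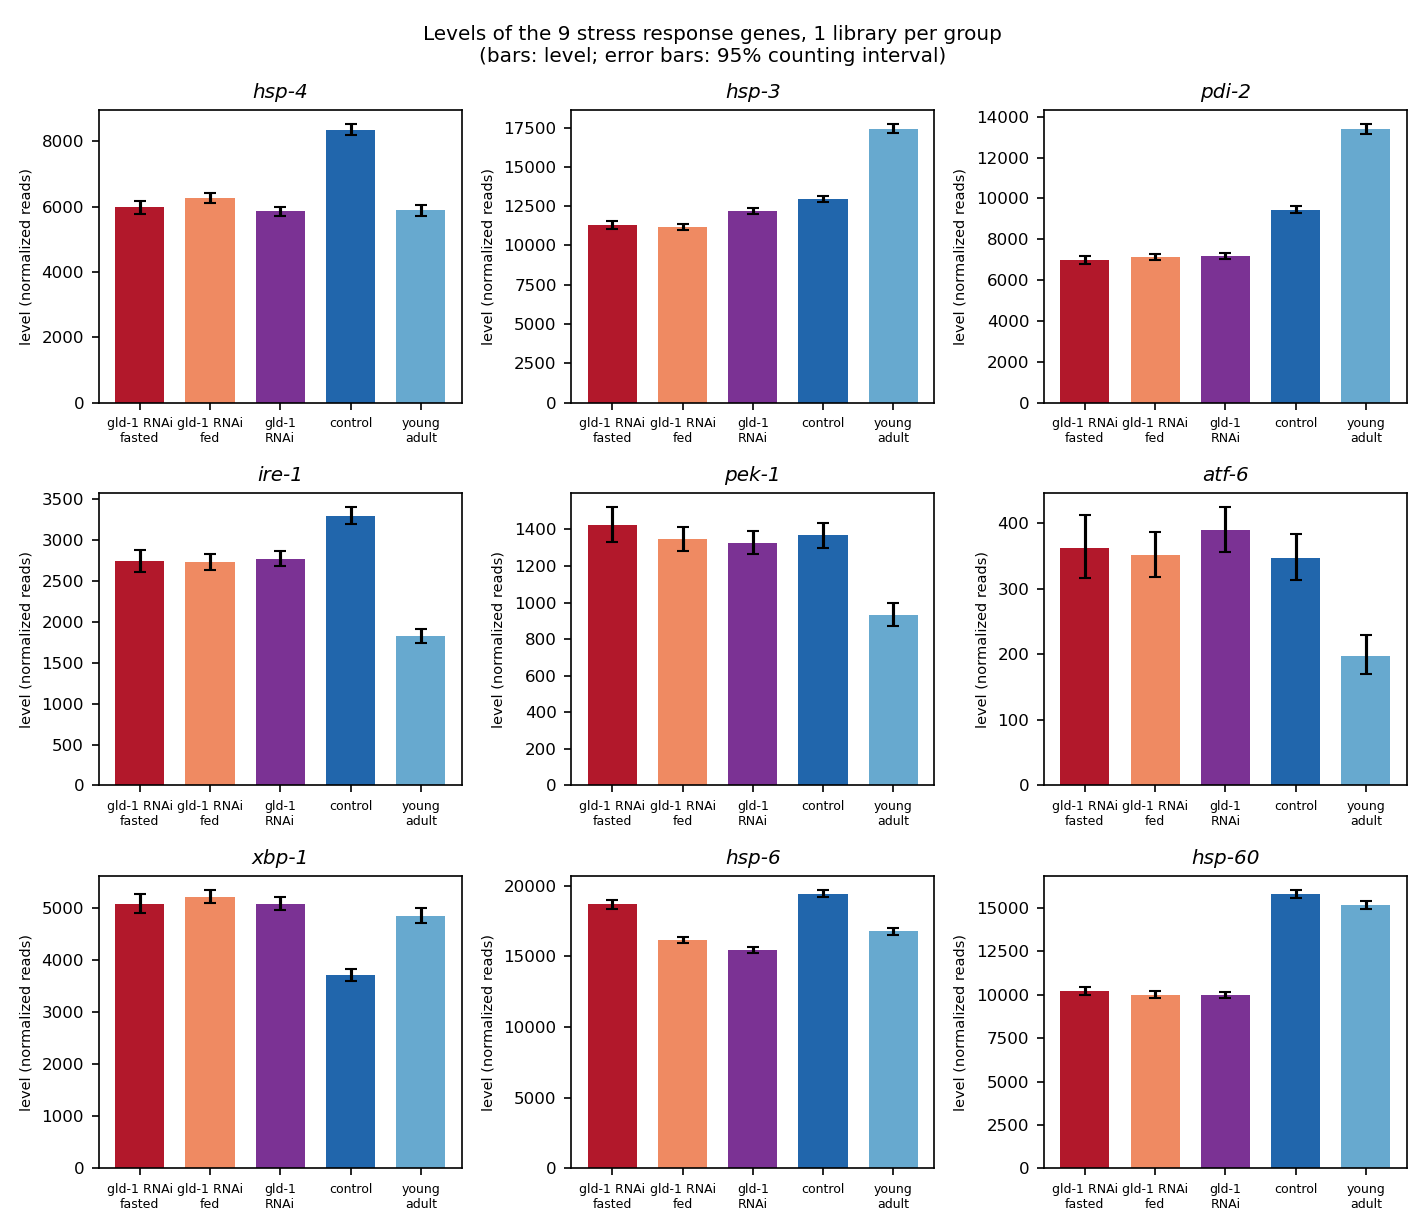
Levels (normalized reads, linear axis from 0) of the 9 genes in the 5 libraries, 1 library per group, with 95% counting intervals as error bars. The 3 gld-1 RNAi libraries are close to each other for all genes except hsp-6, at 18673 in the fasted against 16150 in the fed library; on this scale the control library stands highest for hsp-4 (with equal totals, level with young adult) and lowest for xbp-1, and the young adult library lowest for ire-1, pek-1 and atf-6.

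hsp-4 had a level of 5979 in the gld-1 RNAi fasted, 6263 in the gld-1 RNAi fed, 5859 in the gld-1 RNAi, 8358 in the control and 5884 in the young adult library. The control library stands alone above the other 4, and the intervals of the gld-1 RNAi fasted library overlap those of the gld-1 RNAi fed, gld-1 RNAi and young adult libraries. With equal totals, however, the control and young adult libraries were level for hsp-4 (log2 fold 0.01). hsp-3 had a level of 11297 in the gld-1 RNAi fasted, 11188 in the gld-1 RNAi fed, 12223 in the gld-1 RNAi, 12953 in the control and 17445 in the young adult library. Here the young adult library is highest, and the fasted and fed libraries cannot be ordered within their counting error. pdi-2, which encodes a protein disulfide isomerase that also forms part of the enzyme that hydroxylates collagen prolines, had a level of 6977 in the gld-1 RNAi fasted, 7112 in the gld-1 RNAi fed, 7175 in the gld-1 RNAi, 9444 in the control and 13400 in the young adult library. The 3 gld-1 RNAi libraries overlap in their intervals and lie below the control library, which lies below the young adult library.

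The sensors had a different order of libraries. ire-1 had a level of 2743 in the gld-1 RNAi fasted, 2732 in the gld-1 RNAi fed, 2772 in the gld-1 RNAi, 3296 in the control and 1823 in the young adult library. pek-1, the kinase of the translation arm, had a level of 1426 in the gld-1 RNAi fasted, 1346 in the gld-1 RNAi fed, 1325 in the gld-1 RNAi, 1368 in the control and 933 in the young adult library. atf-6 had a level of 363 in the gld-1 RNAi fasted, 351 in the gld-1 RNAi fed, 390 in the gld-1 RNAi, 348 in the control and 198 in the young adult library. All 3 were lowest in the young adult library, and for pek-1 and atf-6 the intervals of the other 4 libraries overlap, so these are not ordered. Summed, the 3 sensors stood at 4531 in the gld-1 RNAi fasted, 4430 in the gld-1 RNAi fed, 4487 in the gld-1 RNAi, 5012 in the control and 2954 in the young adult library.

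xbp-1 had a level of 5086 in the gld-1 RNAi fasted, 5219 in the gld-1 RNAi fed, 5083 in the gld-1 RNAi, 3709 in the control and 4851 in the young adult library. It is lowest in the control library, where hsp-4, its best known target, is highest. hsp-6, the mitochondrial Hsp70, had a level of 18673 in the gld-1 RNAi fasted, 16150 in the gld-1 RNAi fed, 15475 in the gld-1 RNAi, 19434 in the control and 16756 in the young adult library. hsp-60, the mitochondrial chaperonin, had a level of 10212 in the gld-1 RNAi fasted, 10014 in the gld-1 RNAi fed, 9963 in the gld-1 RNAi, 15809 in the control and 15176 in the young adult library. The 2 mitochondrial chaperones thus differ in order: hsp-60 separates the 3 gld-1 RNAi libraries from the other 2, and hsp-6 does not.

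The gld-1 RNAi and control libraries, both of the third day, compare gld-1 RNAi with the empty vector at equal age. A tumour was not measured here, and its part cannot be told apart from other effects of gld-1 RNAi. Folds are given as log2 of the first library over the second, each value plus 1, on the normalized values of the deposited table of that pair. hsp-60 was lower by a log2 fold of -0.61 (interval -0.65 to -0.58), at 12399 normalized reads in the gld-1 RNAi and 18961 in the control library. It was the 1 gene of the 9 at least 1.5-fold lower, where 19.3% of the 9791 genes with a mean of at least 50 were. No gene of the 9 was at least 1.5-fold higher, where 16.8% of all genes were. With 36.1% of all genes beyond 1.5-fold either way and so few genes here, 1 of 9 is not clearly below that background, which also includes genes of lower counts.

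xbp-1 came next in size and pointed the other way, at 6326 normalized reads in the gld-1 RNAi and 4449 in the control library (log2 fold 0.51, interval 0.45 to 0.56). hsp-4 was lower, at 7292 normalized reads in the gld-1 RNAi and 10024 in the control library (log2 fold -0.46, interval -0.50 to -0.42). The transcription factor and its reporter gene therefore stood on opposite sides of 0. pdi-2 (log2 fold -0.34), hsp-6 (-0.28) and ire-1 (-0.20) were lower beyond counting error, and atf-6 (0.22, interval 0.03 to 0.41) was higher. For hsp-3 (-0.03) and pek-1 (0.01) the interval held 0, and hsp-3 was above 0 under the 3 other scalings (0.04 to 0.10). The 9 genes had a median log2 fold of -0.20, against -0.10 over all genes, and a median size of 0.28 regardless of sign, against 0.42 over all genes. Scaled to equal totals hsp-60 was at -0.48 and xbp-1 at 0.64, so that xbp-1 and not hsp-60 lay beyond 1.5-fold; the median of all genes then moved to 0.03.

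**Figure D2:**
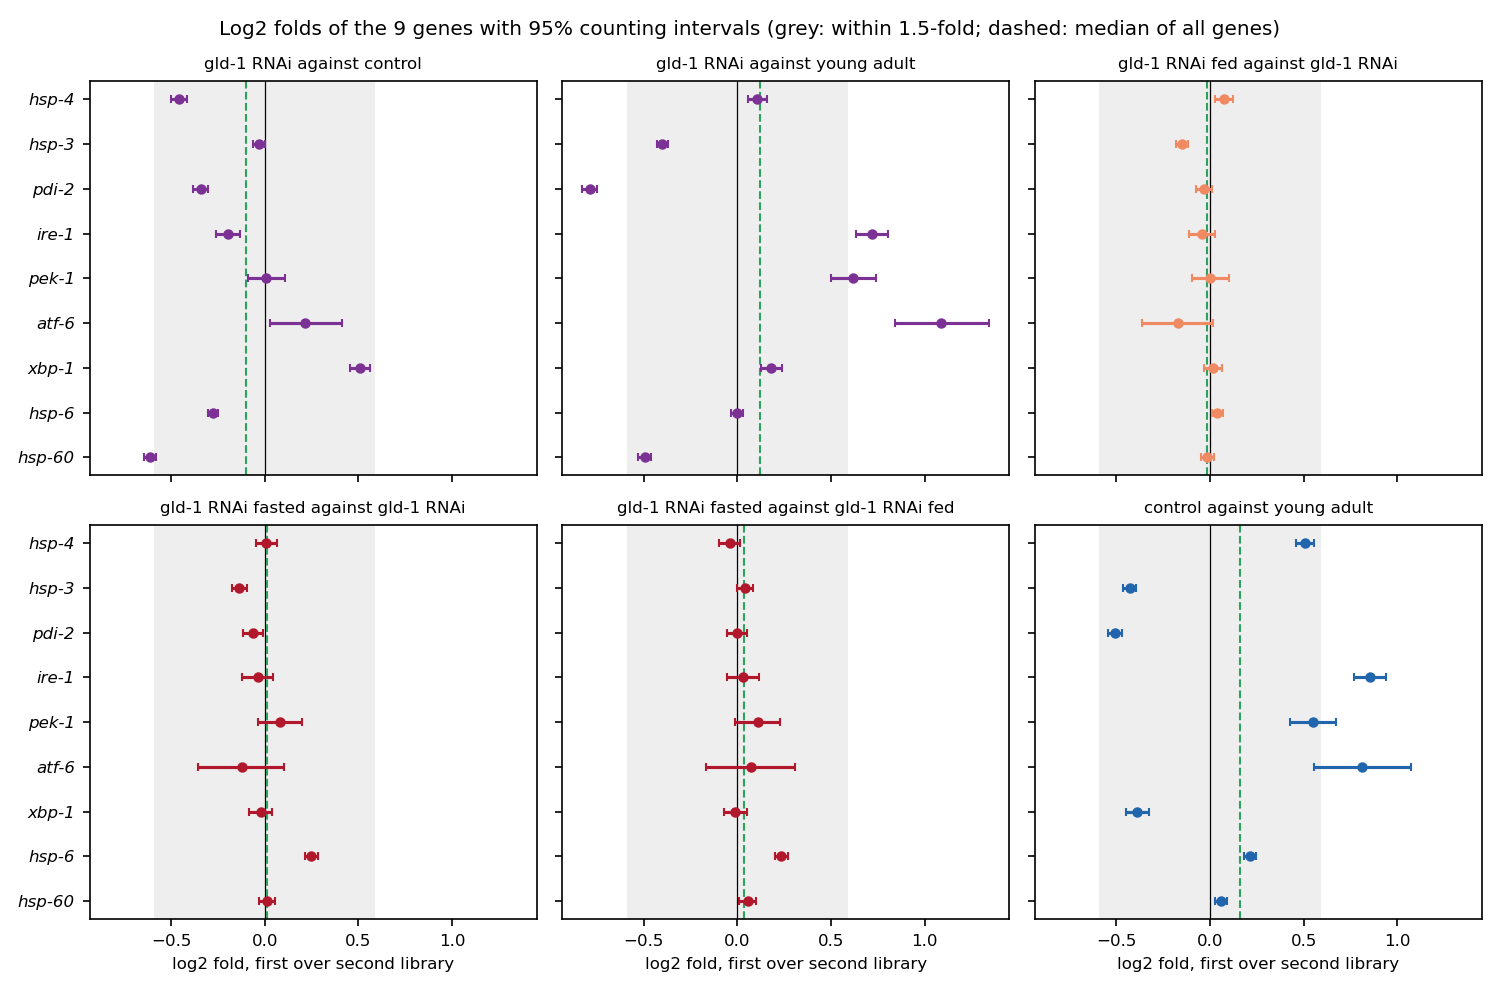
Log2 folds (first over second library named in each panel title) of the 9 genes in 6 comparisons, with 95% counting intervals; the grey band marks values within 1.5-fold and the dashed line the median of all genes. Points leave the band for hsp-60 in gld-1 RNAi against control, for pdi-2, ire-1, pek-1 and atf-6 in gld-1 RNAi against young adult, and for ire-1 and atf-6 in control against young adult; in the 3 panels among gld-1 RNAi libraries all points lie inside it.

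The gld-1 RNAi and young adult libraries differ in age as well as in RNAi. Here the sensors were higher and pdi-2 lower in the gld-1 RNAi library. atf-6 stood at 440 normalized reads in the gld-1 RNAi and 207 in the young adult library (log2 fold 1.09, interval 0.84 to 1.34). ire-1 stood at 3130 in the gld-1 RNAi and 1903 in the young adult library (log2 fold 0.72, interval 0.63 to 0.80), and pek-1 at 1496 in the gld-1 RNAi and 975 in the young adult library (log2 fold 0.62, interval 0.50 to 0.74). These 3 were at least 1.5-fold higher, as were 31.6% of 10795 genes, and with 62.2% of genes beyond 1.5-fold either way a count of 4 in 9 is no more than the background. pdi-2 was the 1 gene at least 1.5-fold lower, as were 30.7% of all genes, at 8102 normalized reads in the gld-1 RNAi and 13990 in the young adult library (log2 fold -0.79, interval -0.83 to -0.75).

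hsp-60 (log2 fold -0.49) and hsp-3 (-0.40) were lower within 1.5-fold, xbp-1 (0.18) and hsp-4 (0.11) were slightly higher, and hsp-6 (-0.00, interval -0.03 to 0.03) could not be told from 0, with values of -0.43 to 0.19 under the other scalings. Libraries of such different makeup are hard to bring to 1 scale. With equal totals, ribosomal RNA included, the median of all genes moved to -0.33 from 0.12, and 1 gene of the 9 was at least 1.5-fold higher and 3 were lower, instead of 3 and 1; with equal upper quartiles that median was 0.34. Under equal totals xbp-1 (-0.24) and hsp-4 (-0.32) were below 0, while atf-6, ire-1 and pek-1 stayed above 0 and pdi-2, hsp-60 and hsp-3 below 0 under all 3 other scalings. Relative to the median of all genes in the deposited table, atf-6 was at 0.97, ire-1 at 0.60, pek-1 at 0.50 and pdi-2 at -0.91.

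The control and young adult libraries set day 3 against day 1 on the same food, from the levels on 1 scale. ire-1 (log2 fold 0.85, interval 0.77 to 0.94) and atf-6 (0.81, interval 0.55 to 1.08) were at least 1.5-fold higher in the control library, as were 33.6% of 10480 genes. No gene of the 9 was at least 1.5-fold lower, where 33% of all genes were, and 66.6% of all genes lay beyond 1.5-fold either way. pek-1 (0.55) and hsp-4 (0.51) were higher and pdi-2 (-0.50), hsp-3 (-0.43) and xbp-1 (-0.39) lower within 1.5-fold. With equal totals pek-1 (0.06) and hsp-4 (0.01) hardly differed. hsp-6 (0.21) and hsp-60 (0.06) were slightly higher on this scale but lower with equal totals (-0.28 and -0.44), and hsp-60 was also lower with equal totals without ribosomal RNA (-0.02). The day 3 control and the day 3 gld-1 RNAi library thus both stood above the young adult library for the 3 sensors and below it for pdi-2 and hsp-3; the 2 comparisons share the young adult library. With equal totals 3 genes were lower and 0 higher by 1.5-fold, instead of 0 and 2.

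Tissue markers moved with these differences, and their part in them was not tested. In bulk worms, fewer cells of a type and less RNA per cell cannot be told apart. Body wall muscle markers (10 genes) summed to a level of 25719 in the gld-1 RNAi, 21448 in the control and 173691 in the young adult library, and intestine markers (11 genes) to 11692, 22547 and 73850 in the same libraries. Hypodermis markers (9 genes) summed to 3421 in the gld-1 RNAi, 4662 in the control and 42345 in the young adult library. In the young adult library col-19 alone made up 34838 of the hypodermis sum, and asp-1 alone 32162 of the intestine sum. In control against young adult, by any amount, 7 hypodermis markers were lower and 2 higher, and 8 intestine markers lower and 3 higher. The median log2 fold of all genes was 0.16. The hypodermis markers dpy-5, rol-6 and bli-1 passed the minimum mean only through the young adult library, so their direction is not a result. Their levels were 3.49, 0.874 and 15.7 in the control and 3047, 383 and 286 in the young adult library. Oocyte markers (12 genes) summed to 119228 in the gld-1 RNAi, 382882 in the control and 128229 in the young adult library. The control library, which stands apart for xbp-1 and, except with equal totals, for hsp-4, is thus also the one with the highest oocyte sum. Against the control library, all 12 oocyte markers and 9 of 11 measured intestine markers were lower by 1.5-fold or more with gld-1 RNAi, where 19.3% of all genes were. Of the 10 neuron markers 7 were higher by that much (median log2 fold 0.94), where 16.8% of all genes were. Muscle markers were mixed (median 0.46): 2 of 9 measured were higher by that much, near the share of all genes, and 3 were below 0. No oocyte, intestine or hypodermis marker was at 0 in these libraries, and 1 of the 10 muscle markers was at 0 in all of them.

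The gld-1 RNAi fasted and gld-1 RNAi fed libraries, both of the fourth day, compare fasting with food after gld-1 RNAi. Of the 9 genes 8 hardly differed, and hsp-6 was modestly higher in the fasted library. hsp-6 stood at 16353 normalized reads in the fasted and 13892 in the fed library (log2 fold 0.24, interval 0.20 to 0.27). hsp-60 (0.05, interval 0.01 to 0.10) was the other gene whose interval left out 0. For the ER genes all 7 intervals held 0, from -0.04 for hsp-4 to 0.11 for pek-1. None of the 9 was at least 1.5-fold higher, where 4.08% of 8991 genes were, or lower, where 7.37% were. With 11.5% of genes beyond 1.5-fold either way and so few genes here, 0 of 9 lies near that background.

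The bounds are narrow for the abundant genes. The interval of hsp-4 (5237 normalized reads in the fasted and 5387 in the fed library) ran from -0.10 to 0.02, and that of xbp-1 (4454 in the fasted and 4489 in the fed library) from -0.07 to 0.05. A difference of 1.5-fold, which is 0.58 on the log2 scale, between these 2 libraries lies outside all 9 intervals. The widest was that of atf-6, from -0.17 to 0.31. The median size of the fold regardless of sign was 0.04 over the 9 genes and 0.18 over all genes, which also include genes of lower counts. Other differences ran alongside. The RNAi target gld-1 was lower in the fasted library, as given above. Oocyte markers summed to 154505 in the fasted and 92658 in the fed library, and 10 of 12 exceeded 1.5-fold. Intestine markers were mixed, with 3 of 9 measured genes higher and 5 lower by 1.5-fold or more. Of all genes 4.08% were higher and 7.37% lower by that much. Muscle markers summed to 17003 in the fasted and 25254 in the fed library, with 3 of 9 measured genes lower by that much. The part of these differences in the fold of hsp-6 was not tested.

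The gld-1 RNAi library of the third day gives another point of comparison, although it shares the fasted or the fed library with the one above. In the fasted library hsp-6 stood at 16736 normalized reads, against 14086 in the gld-1 RNAi library (log2 fold 0.25, interval 0.22 to 0.28). In the fed library it stood at 20085, against 19536 in the gld-1 RNAi library (0.04, interval 0.01 to 0.07), and with equal totals this fold was -0.05. hsp-3 was slightly lower in the fasted (-0.14, interval -0.18 to -0.10) and in the fed library (-0.15, interval -0.18 to -0.12) than in the gld-1 RNAi library. With equal upper quartiles these hsp-3 folds were -0.005 for the fasted and -0.11 for the fed library. Both share the gld-1 RNAi library as reference. The largest fold of the fed library was that of atf-6 (-0.17, interval -0.36 to 0.02). None of the 9 genes was at least 1.5-fold apart in either comparison. For the fasted library the shares of all genes were 1.74% higher and 7.41% lower (9.14% either way), and for the fed library 1.48% higher and 2.2% lower (3.68% either way), so these counts lie near the background. hsp-6 was above 0 in the fasted library against both others under all 3 other scalings (0.21 to 0.38).

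In the authors' deposited tables the adjusted p of all 9 genes was 1 in all 5 tables, 45 of 45 values. At an adjusted p below 0.1, 0 of the 9 genes were called, and those tables called 0.223% of genes for gld-1 RNAi against control, 0.859% for gld-1 RNAi against young adult, 0.298% for gld-1 RNAi fed against gld-1 RNAi, 0.838% for gld-1 RNAi fasted against gld-1 RNAi and 0.632% for gld-1 RNAi fasted against gld-1 RNAi fed. With 1 library a condition, the authors' p cannot hold the spread between pools.

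Ratios of 2 genes within a library do not depend on its scaling. Per kilobase of exon there were 0.762 hsp-4 reads for each xbp-1 read in the gld-1 RNAi fasted library, 0.777 in the gld-1 RNAi fed, 0.747 in the gld-1 RNAi, 1.46 in the control (interval 1.41 to 1.51) and 0.786 in the young adult library. The control library stood apart and the intervals of the gld-1 RNAi libraries and the young adult library overlapped. The ratio of xbp-1 to ire-1, the enzyme that splices its mRNA, was 4.36 in the gld-1 RNAi fasted, 4.49 in the gld-1 RNAi fed, 4.31 in the gld-1 RNAi, 2.65 in the control and 6.26 in the young adult library. Here the 3 gld-1 RNAi libraries overlapped and lay between the other 2.

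hsp-4 to hsp-3, the 2 BiP-type chaperones, had a ratio of 0.632 in the gld-1 RNAi fasted, 0.669 in the gld-1 RNAi fed, 0.573 in the gld-1 RNAi, 0.771 in the control and 0.403 in the young adult library. It was highest in the control library and lowest in the young adult library, and the gld-1 RNAi library lay below the fasted and fed ones beyond counting error. hsp-6 to hsp-60 had a ratio of 1.58 in the gld-1 RNAi fasted (interval 1.53 to 1.63), 1.39 in the gld-1 RNAi fed (1.36 to 1.42), 1.34 in the gld-1 RNAi (1.31 to 1.37), 1.06 in the control (1.04 to 1.08) and 0.952 in the young adult library (0.930 to 0.974). It was highest in the fasted library, and only the fed and gld-1 RNAi libraries overlapped. hsp-3 and hsp-4 are alike in sequence, so reads that match both may be split between them or lost in counting. Exons of ire-1 overlap those of unc-105 on the other strand, which had at most 114 reads in any library.

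**Figure D3:**
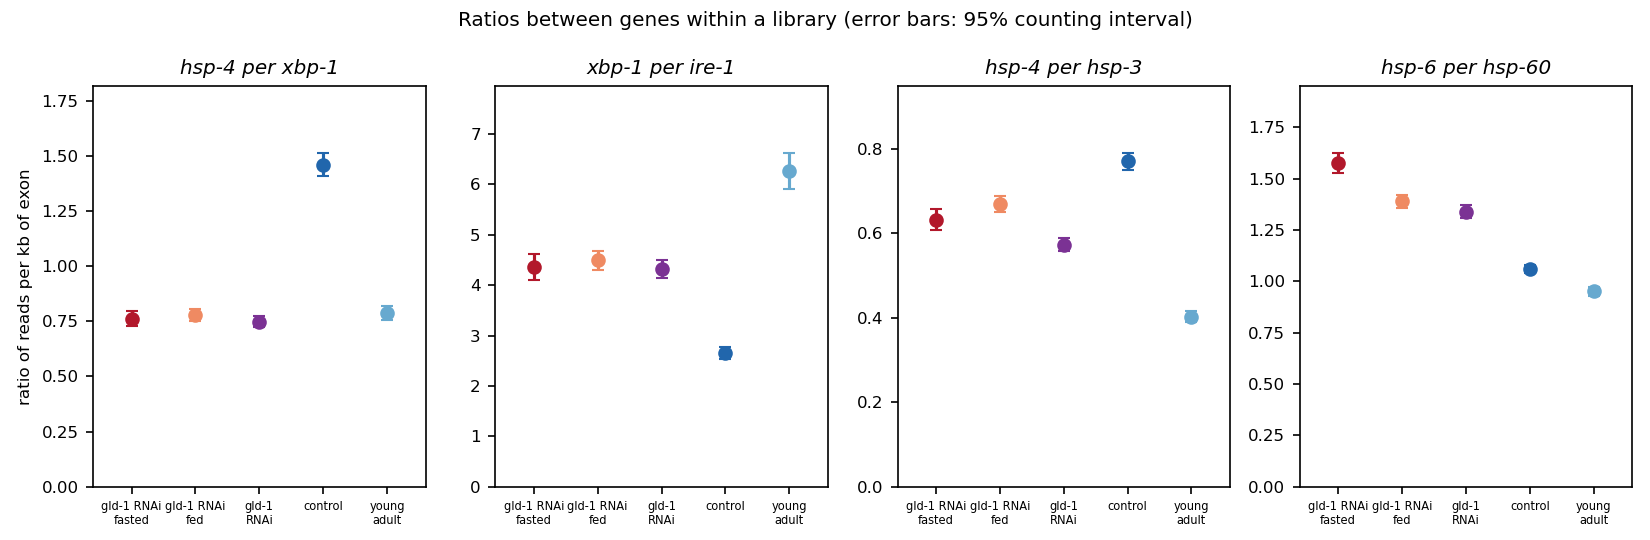
Ratios of reads per kilobase of exon between 2 genes within each library (linear axes from 0), with 95% counting intervals. The control library stands apart for hsp-4 per xbp-1 at 1.46, against 0.747 to 0.786 elsewhere, and the fasted library is highest for hsp-6 per hsp-60 at 1.58.

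The genes whose pattern over the 5 libraries was most like that of hsp-4 or hsp-6 were not the other stress genes. Likeness was the root mean square difference in log2 level over the 5 libraries, each gene centred on its own mean, among 6539 other named genes whose level averaged 50 or more. For hsp-4 the nearest were exos-2 (0.03), cosa-1 (0.04), lnkn-1 (0.04), smg-4 (0.05) and idi-1 (0.05). exos-2 had a level of 646 in the gld-1 RNAi fasted, 650 in the gld-1 RNAi fed, 625 in the gld-1 RNAi, 861 in the control and 645 in the young adult library, which on this scale has the same single high library as hsp-4. Of the other 8 stress genes hsp-6 came closest to hsp-4, at rank 560, and pdi-2 was furthest, at rank 3021. For hsp-6 the nearest were mstr-1 (0.02), ipla-6 (0.04), par-6 (0.04), mvb-12 (0.04) and gld-2 (0.04), and hsp-60 came at rank 1823. mstr-1 had a level of 8858 in the gld-1 RNAi fasted, 7643 in the gld-1 RNAi fed, 7457 in the gld-1 RNAi, 9307 in the control and 7801 in the young adult library. With 5 libraries many genes can have a like pattern.

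Other genes of the ER were taken from lists chosen with earlier results of these data known. In the gld-1 RNAi against the control library, 9 of 18 genes for entry of nascent chains into the ER lay 1.5-fold or more below 0 and 0 above it (median log2 fold -0.59), where 19.3% of all genes were lower and 16.8% higher by that much. They included ostd-1 (-1.16), a subunit of the oligosaccharyltransferase, sec-61.A (-0.98; 8775 normalized reads in the gld-1 RNAi and 17286 in the control library), the pore of the translocon, and sec-61.G (-0.97), another translocon subunit. Of 15 measured genes of ER-associated degradation, which removes misfolded proteins, 7 were lower by that much and 0 higher (median -0.48). Lowest were cdc-48.1 (-0.93), the ATPase that pulls proteins from the membrane, cup-2 (-0.70), a derlin, and sel-11 (-0.66), a ubiquitin ligase. These 2 lists thus lay further below 0 than the median of all genes (-0.10), beside the lower sum of the oocyte markers, whose part in this was not tested.

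Other ER chaperones and folding enzymes were mixed in that comparison, with 4 of 17 measured genes at least 1.5-fold lower, which is near the 19.3% of all genes, 0 higher and a median of -0.12. The calcium-binding chaperone calreticulin, crt-1 (-0.76), the glucosyltransferase uggt-1 (-0.74), which marks unfolded glycoproteins, and the disulfide isomerase pdi-3 (-0.72) were lower. enpl-1 (0.45, interval 0.41 to 0.48), the ER form of Hsp90, was higher, at 17152 normalized reads in the gld-1 RNAi and 12591 in the control library. hsp-4 and enpl-1, both ER chaperones, thus stood on opposite sides of 0. Of the 7 signalling partners 1 was at least 1.5-fold higher and 0 lower (median 0.15), where 16.8% of all genes were higher. That gene was gcn-1 (1.04, with 11679 normalized reads in the gld-1 RNAi and 5688 in the control library), an activator of the kinase GCN-2.

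Of the 3 mitochondrial lists, none had a median as far from 0 in gld-1 RNAi against control as ER entry or ER-associated degradation. At most 1 gene of each was beyond 1.5-fold, where 16.8% of all genes were higher and 19.3% lower by that much. The lists are short, and all genes also include genes of lower counts. Of 17 genes of chaperones and import 1 was at least 1.5-fold higher and 0 lower (median 0.02), the inner membrane translocase subunit timm-23 (1.31, interval 1.23 to 1.40), at 3931 normalized reads in the gld-1 RNAi and 1581 in the control library. Of 9 mitochondrial proteases 0 were beyond 1.5-fold (median 0.23), with ymel-1 (0.52) the highest. Of 13 regulators of the mitochondrial response 1 was at least 1.5-fold higher and 0 lower (median -0.21). That gene was the histone demethylase jmjd-3.1 (1.10; 451 normalized reads in the gld-1 RNAi and 210 in the control library), while the homeodomain factor dve-1 (-0.58, interval -0.97 to -0.21) and the peptide exporter haf-1 (-0.56) were the lowest. hsp-60, lower by -0.61, thus lay below every measured gene of these 3 mitochondrial lists, although its interval lies within that of dve-1.

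In the gld-1 RNAi fasted against the gld-1 RNAi fed library, 0 of 18 genes of ER entry (median 0.17), 0 of 15 of ER-associated degradation (0.14), 0 of 17 of mitochondrial chaperones and import (-0.05), 0 of 9 mitochondrial proteases (-0.04) and 0 of 13 mitochondrial regulators (0.15) were beyond 1.5-fold, where 11.5% of all genes were and the median of all genes was 0.04. Of the other ER chaperones and folding enzymes 4 of 17 were lower by 1.5-fold or more and 0 higher (median -0.09), where 7.37% of all genes were lower and 4.08% higher. The lowest were the thioredoxin-like txdc-12.2 (-1.19; 127 normalized reads in the fasted and 291 in the fed library) and txdc-12.1 (-0.85) and the prolyl isomerase fkb-3 (-0.84), all of low counts. crt-1 was the highest (0.43; 14751 normalized reads in the fasted and 10948 in the fed library). Among the 7 signalling partners ckb-2, a choline kinase, was at least 1.5-fold higher (1.23, interval 0.96 to 1.52), at 322 normalized reads in the fasted and 136 in the fed library, and 0 were lower. The lowest was atf-4 (-0.38, interval -0.61 to -0.16), the transcription factor of the translation arm.

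**Figure D4:**
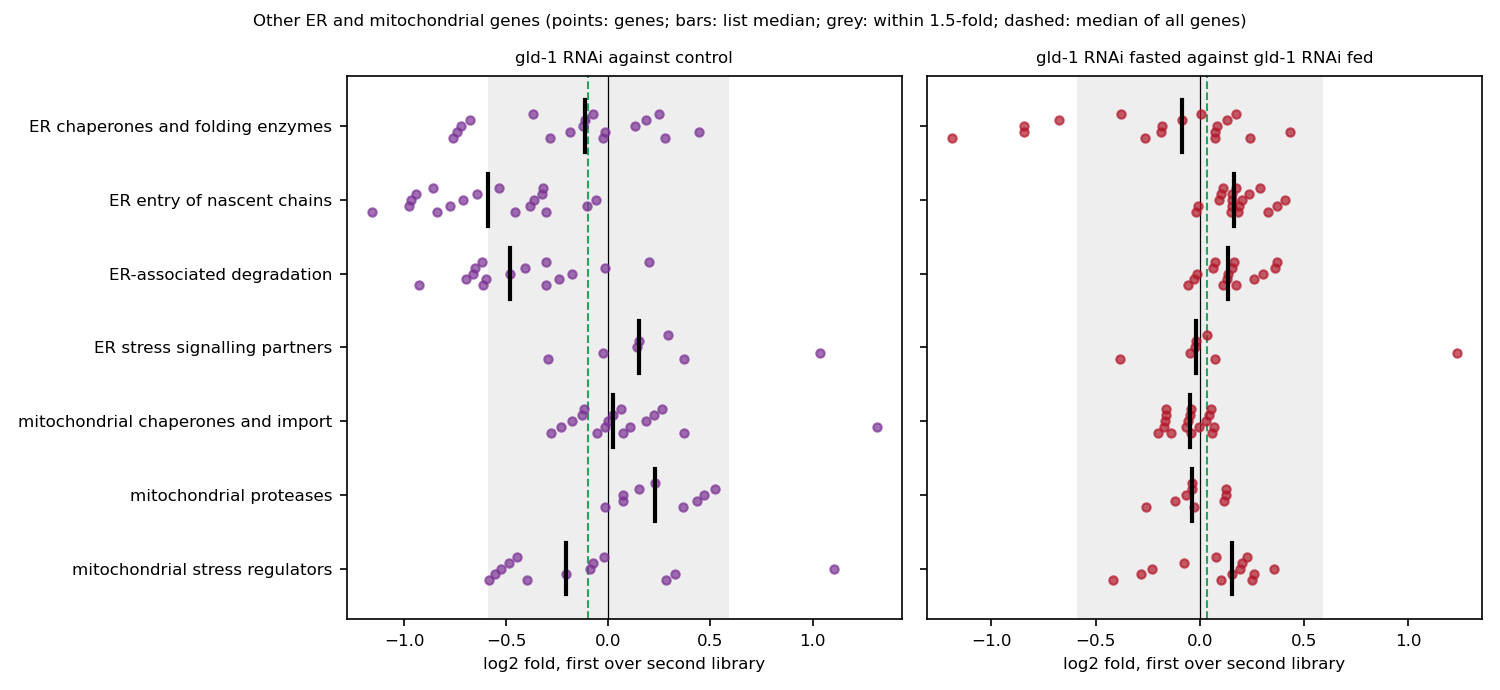
Log2 folds (first over second library) of genes in 7 lists of ER and mitochondrial genes, 1 point per gene with a mean of at least 50, the list median as a bar, values within 1.5-fold in grey and the median of all genes dashed. In gld-1 RNAi against control the medians of ER entry (-0.59) and ER-associated degradation (-0.48) lie furthest to the left, and in gld-1 RNAi fasted against fed most points lie in the grey band.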

How the data were processed

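RNA-seq was measured in 5 libraries of whole worms, 1 per group. Per the submitters' processing notes reads passed through TopHat, HTSeq and DESeq, with no version stated and the genome build not given in the sources used here. The authors deposited 5 tables, each of 1 pair of libraries, with normalized signal per gene (counts over a size factor), its ratio, log2 fold and p-values, per the file headers. Whole reads were recovered from the smallest value above 0: 100% of the deposited values came out whole within 0.1 read, and where a library recurs, its reads were identical between tables (0 genes differed), which also settled which column is which library. The gld-1 RNAi library stands in 4 tables. Gene names and exon lengths came from Ensembl release 115, with RefSeq names where it had none (44936 of 45461 identifiers matched). With 1 library per group a count test on these reads has no residual degrees of freedom, so none was run here. Folds used a pseudocount of 1, which understates changes of low genes, and a minimum mean of 50. Intervals are exact (Clopper-Pearson; for levels, exact Poisson). The 9 genes and the 15 other lists (192 of 209 names matched) were chosen with earlier results of these data known. Named genes were the 9, gld-1, the 3 highest and 3 lowest of each list for gld-1 RNAi against control and fasted against fed, and the 5 nearest patterns of hsp-4 and of hsp-6; which of the list genes to print was chosen after their values were seen. Recovery, folds and intervals were tested on simulated counts. Analyses used Python 3.11.15, pandas 2.3.3, numpy 2.4.6 and scipy 1.17.1. No coordinates or sequences are shown, since none were used here.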

Additional observations from a re-analysis of the deposited data

How the results depend on the processing

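No paired analysis was possible because each group has 1 library, and for the same reason no library could be left out. Of the 9 genes, 1 was beyond 1.5-fold in gld-1 RNAi against control; this count was 0 with equal upper quartiles, at 2-fold, by a counting interval wholly beyond 1.5-fold and by the authors' adjusted p. It stayed 1 with equal totals, with or without ribosomal RNA, where the gene is xbp-1 in place of hsp-60. The count of 4 in gld-1 RNAi against young adult was 1 at 2-fold and 0 by the authors' adjusted p, and the 2 in control against young adult were 4 with equal upper quartiles, 0 at 2-fold and 1 by the counting interval. The 3 counts of 0 among gld-1 RNAi libraries were 0 under every alternative run. Of the 54 folds, 13 changed sign with equal totals, 8 with equal totals without ribosomal RNA and 11 with equal upper quartiles, and 0 with a pseudocount of 10 or none. No fold beyond 1.5-fold changed sign. Minimum means of 10 or none changed no count. Apart from the construction of each alternative, the cause was not tested. The depth of 13803289 reads in the fasted library limits atf-6 most.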

Other observations

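Other stress genes were described by their values only. Of the abu genes, which were named for activation when the unfolded protein response is blocked, 10 of 14 matched genes passed the minimum mean in gld-1 RNAi against young adult. They passed almost only through the young adult library, so that they were lower in the other one follows largely from the minimum and is not a result. Their summed level was 161 in the gld-1 RNAi fasted, 232 in the gld-1 RNAi fed, 246 in the gld-1 RNAi, 213 in the control and 3722 in the young adult library. Only abu-14 was measured in gld-1 RNAi against control (0.30) and in fasted against fed (-0.62, interval -1.13 to -0.14).

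Of the cytosolic heat shock genes, 1 of 15 measured was at least 1.5-fold higher and 2 lower in gld-1 RNAi against control, no more than the shares of all genes (16.8% higher and 19.3% lower). The lower ones were the small heat shock genes sip-1 (log2 fold -1.21; 30102 normalized reads in the gld-1 RNAi and 69563 in the control library) and hsp-17 (-1.13). The higher one was hsp-16.1 (T27E4.2, 1.53), a gene of near-identical copies whose reads may be split. It had 114 normalized reads in the gld-1 RNAi and 38.8 in the control library. It thus passed the minimum mean only through the gld-1 RNAi library, so the count of 1 higher is not a result. In fasted against fed 1 of 16 was higher, sip-1 (0.81; 29357 normalized reads in the fasted and 16763 in the fed library), and 4 were lower, among them hsp-17 (-1.24), hsp-43 (-1.05) and hsp-70 (-0.95), where 4.08% of all genes were higher and 7.37% lower. Against the gld-1 RNAi library hsp-70 was higher in both the fasted (0.89) and the fed library (1.87). Of the 16 heat shock genes measured, 4 were higher by 1.5-fold or more in each of these comparisons. For all genes that share was 1.74% for the fasted and 1.48% for the fed library. Beside hsp-70, these were hsp-16.1 (T27E4.2), hsp-16.2 and hsp-16.41. In the gld-1 RNAi library hsp-16.2 and hsp-16.41 had levels of only 42.9 and 50.6, against 109 and 134 in the fasted library. They passed the minimum mean in that comparison largely through the fasted library, so its count is not a result. Neuron markers (10 genes) summed to 8329 in the fasted, 8284 in the fed, 8428 in the gld-1 RNAi, 6029 in the control and 6489 in the young adult library, and sperm markers (9 genes) to 315, 487, 426, 56 and 5062 in the same order, with 3 of 9 at 0 in the control library. The gene fer-1 alone made up 275, 377, 354, 33.2 and 179 of these sperm sums. It was the 1 sperm marker that passed the minimum mean in gld-1 RNAi against control.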
